A study of Mus musculus with 50 samples.

Results

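Lipid-associated macrophages are tissue macrophages that take up and break down lipid, and 9 genes that mark them (Trem2, Cd9, Gpnmb, Itgax, Clec7a, Mmp12, Lgals3, Fabp5 and Lpl) were followed by RNA-seq in liver and liver tumours of C3H/He mice. The genes are given by name and no measured value enters the rule, although earlier results of these data were known when they were chosen. Their symbols matched 10 of the 45792 rows of the count table. Clec7a is listed under 2 identifiers, of which ENSMUSG00000102040.1 had no count in any library and was not used, so each gene is given by 1 row. The other symbols each matched 1 row.

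The study asked how a fast-food type of diet bears on fatty liver disease and liver cancer, and measured whole pieces of tissue, so each value is a mixture of hepatocytes, macrophages and all other cells. Male C3H/He mice, a strain in which liver tumours arise readily, received the American lifestyle (ALIOS) diet, which is rich in trans-fat and comes with fructose in the drinking water, or a control diet, and tissue was taken at 48 weeks. The 6 groups were non-tumour liver on the control diet (12 libraries, N1 to N12), non-tumour liver on the ALIOS diet (11, N13 to N23), tumours without carcinogen on the ALIOS diet (12, here called spontaneous tumours), 1 tumour without carcinogen on the control diet (T7), and tumours from mice that had received the carcinogen diethylnitrosamine (DEN), with the control diet (5, T17 to T21) or the ALIOS diet (8). Tumour T1, labelled as a spontaneous ALIOS tumour, was left out of all comparisons. The labels do not say which tumour and liver came from 1 mouse, do not name separate mice for the libraries, and no DEN-treated non-tumour liver was analysed here, so DEN treatment and tumour tissue cannot be told apart in the comparisons of DEN tumours with liver. The dose and time of DEN are not given in the sources used here. Where the labels name no separate animals, p-values measure the spread between these libraries.

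Macrophages that sit in fatty tissue and in the fatty liver are known to switch on a shared set of genes. At its centre stands Trem2, a surface receptor for lipids and lipoproteins that signals through the adaptor Tyrobp. In the liver such cells differ from resident Kupffer cells, which carry Clec4f, Timd4 and Vsig4. The other members fall into surface proteins (Clec7a, the receptor dectin-1 for fungal glucans; Itgax, the integrin chain CD11c; Cd9, a tetraspanin; Gpnmb, a glycoprotein of late endosomes and lysosomes), secreted proteins (Mmp12, the macrophage elastase; Lgals3, galectin-3) and proteins that handle fatty acids (Fabp5, a cytosolic fatty acid carrier; Lpl, lipoprotein lipase, which releases fatty acids from lipoprotein triglyceride). Several of them are not restricted to macrophages. Cd9 and Fabp5 are made by many epithelial cells, Lpl is also made by fat and muscle cells, and Gpnmb by melanocytes.

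In GRCm38 coordinates (the mm10 build the reads were mapped to) the genes lie at 17:48346401-48354147 (Trem2), 6:129461591-129472779 (Clec7a), 7:128129547-128150657 (Itgax), 6:125460266-125494791 (Cd9), 6:49036546-49070929 (Gpnmb), 9:7344381-7369499 (Mmp12), 14:47367751-47386160 (Lgals3), 3:10012548-10016607 (Fabp5) and 8:68880491-68907448 (Lpl). Reads were counted over all exons of each gene. Exons of Cd9 share 218 bases with Gm26728 and those of Mmp12 share 157 bases with Mmp1b, both on the opposite strand, and without a stated strand setting for the counting, reads there cannot be told apart. The annotation lists Clec7a as a polymorphic pseudogene, a gene that is intact in some strains.

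The 250 bases before the annotated start of 4 genes are shown because the levels of Trem2, Gpnmb and Mmp12 moved together from library to library and Itgax and Mmp12 had the largest called differences between the diets in liver. They were taken from the RefSeq promoter windows of GRCm38.p6, which held 7 of the 9 genes in 9 windows. Fabp5 and Lpl are not among them. The start meant is that of the RefSeq window, which for Gpnmb, Mmp12 and Itgax differs slightly from the gene coordinates above. Capitals mark matches, on either strand, to GAGGAAG (a form of the site of PU.1, the lineage factor of macrophages), TGACTCA (AP-1), TCATGTG (the M-box of MiT factors) or CACGTG (the E-box).
Trem2, chr17:48346151-48346400, plus strand: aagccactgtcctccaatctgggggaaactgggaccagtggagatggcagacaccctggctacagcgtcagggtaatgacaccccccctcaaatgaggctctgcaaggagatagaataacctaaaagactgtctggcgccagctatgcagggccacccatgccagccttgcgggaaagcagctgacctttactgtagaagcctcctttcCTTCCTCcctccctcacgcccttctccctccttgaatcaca
Gpnmb, chr6:49036268-49036517, plus strand: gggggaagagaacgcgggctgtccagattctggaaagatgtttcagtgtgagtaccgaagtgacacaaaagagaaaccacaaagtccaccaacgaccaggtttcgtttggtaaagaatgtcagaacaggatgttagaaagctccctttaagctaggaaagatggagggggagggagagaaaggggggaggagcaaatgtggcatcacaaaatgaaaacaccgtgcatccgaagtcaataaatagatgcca
Mmp12, chr9:7344147-7344396, plus strand: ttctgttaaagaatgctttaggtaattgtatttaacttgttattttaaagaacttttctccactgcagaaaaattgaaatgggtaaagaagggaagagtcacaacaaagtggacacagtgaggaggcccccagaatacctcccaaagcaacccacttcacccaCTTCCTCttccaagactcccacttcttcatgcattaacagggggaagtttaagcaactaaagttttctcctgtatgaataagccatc
Itgax, chr7:128129300-128129549, plus strand: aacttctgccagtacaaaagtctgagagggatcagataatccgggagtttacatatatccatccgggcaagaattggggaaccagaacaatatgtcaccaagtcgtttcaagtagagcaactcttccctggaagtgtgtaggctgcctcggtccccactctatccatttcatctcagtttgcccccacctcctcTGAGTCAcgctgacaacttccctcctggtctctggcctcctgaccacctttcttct

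Trem2 held the PU.1 letters on the opposite strand, starting 41 bases before its start, and Mmp12 held them 87 bases before its start. Itgax held the AP-1 letters 56 bases before its start. The Gpnmb window held none of the 4 motifs, nor did those of Cd9, Lgals3 and Clec7a, which are not shown. In all, 5 of the 9 windows were without a match. The PU.1 letters were in 2 of the 9, the AP-1 letters in 2, the M-box in 1 and the E-box in 0. Of 32851 windows of this length, 10.6% held the PU.1 letters, 4.46% the AP-1 letters, 3.25% the M-box and 6.02% the E-box. A second Mmp12 window, at a later start, held the M-box and the AP-1 letters. None of the matches overlapped another. These are matches of letters only.

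Each library held between 23798251 and 45751398 counted reads. All 9 genes passed the filter on low counts in all 7 comparisons, but their depth differed widely. In control livers Trem2 was measured by 2 to 43 reads, Itgax by 3 to 42, Mmp12 by 1 to 72 and Gpnmb by 0 to 97, so their levels there carry a large counting error. Clec7a had 55 to 209 reads, Lgals3 82 to 406, Lpl 152 to 1609, Cd9 215 to 1111 and Fabp5 935 to 5117. Alb, the most abundant hepatocyte transcript, took 4.43% to 21.1% of the reads in the 49 libraries used and 0.00379% in T1, where Kap, a kidney transcript, took 3.54%. Adipocyte markers (6 genes) summed to at most 0.343 CPM in any group, and Lep was at 0 in all 49 libraries used. Of the 4 melanocyte genes Tyr was at 0 in all of them, and the sum of the 4 ranged from 7.63 to 44.2 CPM in control livers and from 0.127 to 18.9 CPM in spontaneous ALIOS tumours.

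Levels are given as normalised read counts, in CPM (counts scaled to a common TMM-adjusted library size). Per kilobase of exon (union of exons in Gencode M21), the median control liver had 32.0 CPM of Fabp5, 9.63 of Cd9, 2.27 of Lgals3, 1.56 of Lpl and 1.14 of Clec7a, and less than 0.1 of Mmp12 (0.0971), Trem2 (0.0746), Itgax (0.0624) and Gpnmb (0.0476). Neighbours in this order overlapped in their range over the 12 control livers, as for Fabp5 (11.04 to 54.0 CPM per kilobase) and Cd9 (6.02 to 21.6), except that the lowest Clec7a value (0.653) lay above the highest values of Mmp12 (0.302), Trem2 (0.366), Itgax (0.368) and Gpnmb (0.627). In the median spontaneous ALIOS tumour the order was Fabp5 (104), Cd9 (24.3), Lpl (11.1), Lgals3 (6.17), Clec7a (3.23), Mmp12 (1.21), Itgax (0.727), Gpnmb (0.344) and Trem2 (0.237). In each of the 6 groups Fabp5 and Cd9 held the first places. The last place was held by Gpnmb in control livers and by Trem2 in the other 5 groups.

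**Figure D1:**
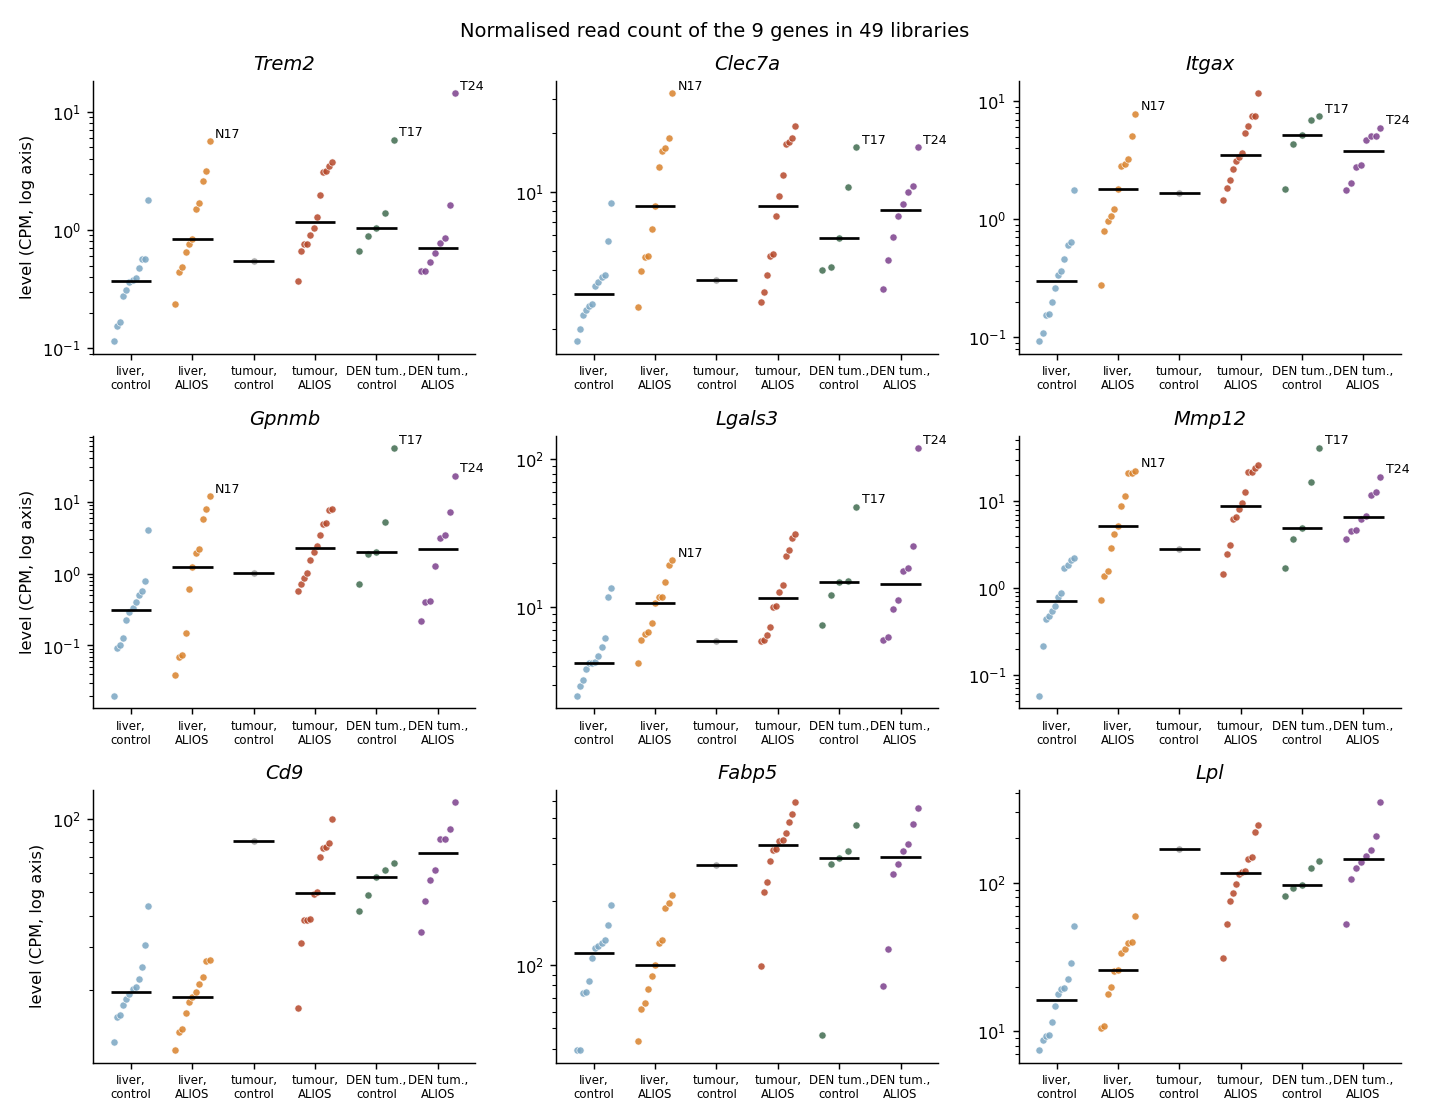
Normalised read count (CPM, log axis) of each of the 9 genes in the 49 libraries, by group, 1 point per library, with a line at the group median. Trem2, Clec7a, Itgax, Gpnmb, Lgals3 and Mmp12 spread over a wide range within each group, with N17, T17 and T24 at the top of their groups for Trem2 and Gpnmb, whereas Cd9, Fabp5 and Lpl are higher in most tumours than in the livers. A Gpnmb count of 0 in N9 is drawn at 0.02 CPM.

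The first comparison asked what the ALIOS diet did in non-tumour liver. Of the 9 genes 5 were higher on the ALIOS diet and none lower (edgeR's quasi-likelihood test, adjusted p over all 13723 genes tested), where 6.73% of all genes were called higher and 4.51% lower. The 5 were Mmp12, Itgax, Trem2, Clec7a and Lgals3. The median log2 fold change of the 9 genes was 1.71, beside -0.02 for all genes tested. In whole tissue, more macrophages of this kind and more RNA of these genes per macrophage cannot be told apart.

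Trem2 ranged from 0.114 to 1.81 CPM in control livers, with a median of 0.369, and from 0.236 to 5.61 in ALIOS livers, with a median of 0.847. The groups overlapped: the control median was exceeded by 10 of 11 ALIOS livers but the highest control liver, N10, by only 3. The fold change was 3.53 (log2 1.82, SE 0.48, adjusted p = 0.0190), and without the ALIOS liver N17 it no longer passed (log2 1.403, adjusted p = 0.0538), nor did it with all 5 groups of libraries fitted together (adjusted p = 0.0650). Clec7a, which passed the test whichever liver was left out, rose from a median of 3.001 CPM (1.72 to 8.81) to 8.50 (2.58 to 32.0). Its fold change was 3.28 (log2 1.71, SE 0.37, adjusted p = 0.00662), with 5 ALIOS livers above every control. Itgax rose from a median of 0.300 CPM (0.0923 to 1.77) to 1.81 (0.279 to 7.82), a fold change of 6.01 (log2 2.59, SE 0.50, adjusted p = 0.00398). For Itgax 6 ALIOS livers lay above the highest control.

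Mmp12, the elastase, had the largest difference of the set. Its median was 0.703 CPM in control livers (0.0572 to 2.18) and 5.11 in ALIOS livers (0.732 to 22.3), a fold change of 9.10 (log2 3.19, SE 0.56, adjusted p = 0.00183). The control median was exceeded by all 11 ALIOS livers and the highest control liver by 8. Gpnmb spread more than any other member: it ranged from 0 to 4.09 CPM (median 0.310) in control livers and from 0.0394 to 11.9 (median 1.25) in ALIOS livers. Its log2 fold change of 2.23 (95% interval 0.59 to 3.88, adjusted p = 0.0681) did not pass. Without N10, the control liver that held the highest Gpnmb, it was 3.17 (adjusted p = 0.0106), and it also passed without N13, N16 or N21, ALIOS livers with 1 or 2 Gpnmb reads, each left out alone (adjusted p from 0.04 to 0.0496). Lgals3, galectin-3, rose from a median of 4.23 CPM (2.52 to 13.6) to 10.7 (4.22 to 20.8). Its fold change of 1.96 (log2 0.97, SE 0.30, adjusted p = 0.0386) lay near the threshold, and in 13 of the 23 fits that left out 1 liver the adjusted p rose to between 0.0527 and 0.0887. With all 5 groups fitted together it was 0.181.

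Cd9 and the genes of fatty acid handling were not called. Cd9 had a median of 19.7 CPM on the control diet (12.3 to 44.1) and 18.7 on the ALIOS diet (11.4 to 26.5), with a 95% interval of the log2 fold change from -0.59 to 0.15. Fabp5 had medians of 114 CPM (39.4 to 193) and 99.9 (43.6 to 215), and its interval ran from -0.44 to 0.70. Lpl had medians of 16.4 CPM (7.48 to 51.1) and 26.1 (10.6 to 59.9), with 9 of 11 ALIOS livers above the control median and an interval from -0.02 to 1.30 (adjusted p = 0.186). Of the 3 genes Lpl had the interval that reached furthest above 0.

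High levels fell on the same livers. N17 was among the 3 highest ALIOS livers for 8 of the 9 genes, all but Fabp5, of which it held the lowest level (43.6 CPM). N17 also had the highest sums among ALIOS livers of the stellate cell and fibroblast list (523 CPM, median 237) and of the cholangiocyte list (28.7 CPM, median 8.04). Its summed level of the core macrophage genes was 642 CPM, rank 2 of the 11 ALIOS livers (median 472). The part of any of these cells in its member levels was not tested. N22 was among the 3 highest for 6 genes. Among control livers N10 held the highest Trem2, Gpnmb, Itgax and Clec7a and the lowest Fabp5 (39.4 CPM), and N5 was among the 3 highest for 6 genes. The core macrophage sum of N10 was 478 CPM, rank 2 of the 12 control livers (median 255). The colour map of all libraries shows these columns.

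**Figure D2:**
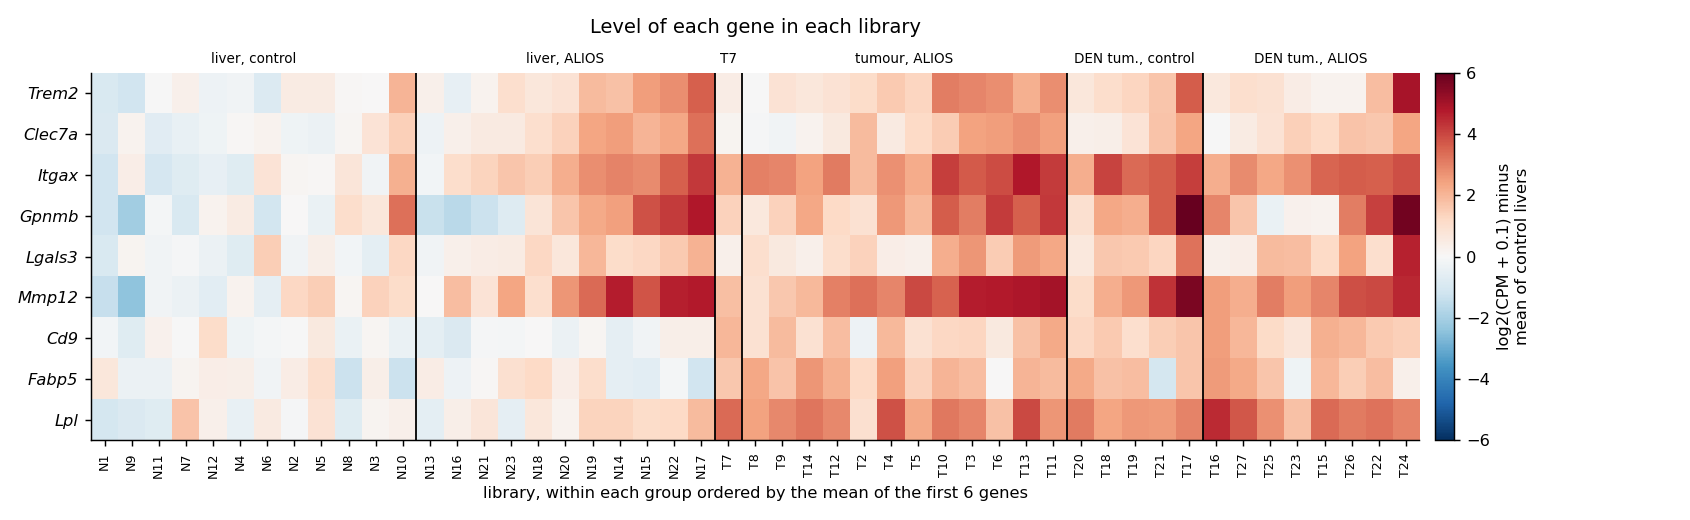
Level of each gene (rows) in each of the 49 libraries (columns) as log2(CPM + 0.1) minus the mean of the control livers, with libraries ordered within each group by the mean of the first 6 rows. The order itself makes the first 6 rows deepen from left to right within groups, and N10, N17, T11, T17 and T24 stand last in theirs, whereas Cd9, Fabp5 and Lpl are above the control livers across most tumours.

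General macrophage transcripts moved with the diet as well. Of 9 core macrophage genes 6 were higher (median log2 difference of the list 0.81), led by Cd14 (1.21), Adgre1 (1.01) and Fcgr1 (0.98). Their summed level ranged from 196 to 661 CPM in control livers and from 335 to 749 in ALIOS livers. Of 12 Kupffer cell genes 5 were higher, led by Cd5l (0.94), Vsig4 (0.73) and Clec4f (0.64), and of 7 monocyte genes tested only Cx3cr1 (1.45). With the core macrophage level of each liver as a covariate, none of the 9 members was called. That fit called 9 genes higher and 7 lower over all genes, against 923 and 619 without the covariate. In it the log2 fold change of Mmp12 went from 3.19 to 1.82 (adjusted p = 0.421), that of Itgax from 2.59 to 0.93 (adjusted p = 0.475), that of Clec7a from 1.71 to 0.44 (adjusted p = 0.740), that of Trem2 from 1.82 to 0.41 (adjusted p = 0.828) and that of Lgals3 from 0.97 to -0.14 (adjusted p = 0.840). How much of each member's difference goes with macrophage content was not tested further.

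The genes that work with Trem2 and the rest of the lipid-associated programme were read from lists written from general knowledge. Of 10 tested Trem2 partners 5 were higher on the ALIOS diet, and the list's median was 0.77 on the log2 scale. They were led by Tyrobp (0.93), its sister adaptor Hcst (0.93) and the phospholipase Plcg2 (0.91). Of 30 other genes of these macrophages 15 were higher and 1, Syngr1 (-0.70), lower. They were led by Spp1, which encodes osteopontin (1.33), the fatty acid receptor Cd36 (1.30) and the actin-capping Capg (1.16). Of the 9 genes around lipoprotein lipase only its activator Apoc2 was called (0.62). None of 9 hepatocyte, 7 endothelial or 3 dendritic cell genes tested was called. In the cholangiocyte list Epcam (1.73) and Tspan8 (1.58) were higher, and in the stellate cell and fibroblast list Col3a1 (1.17) and Pdgfrb (0.60).

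**Figure D3:**
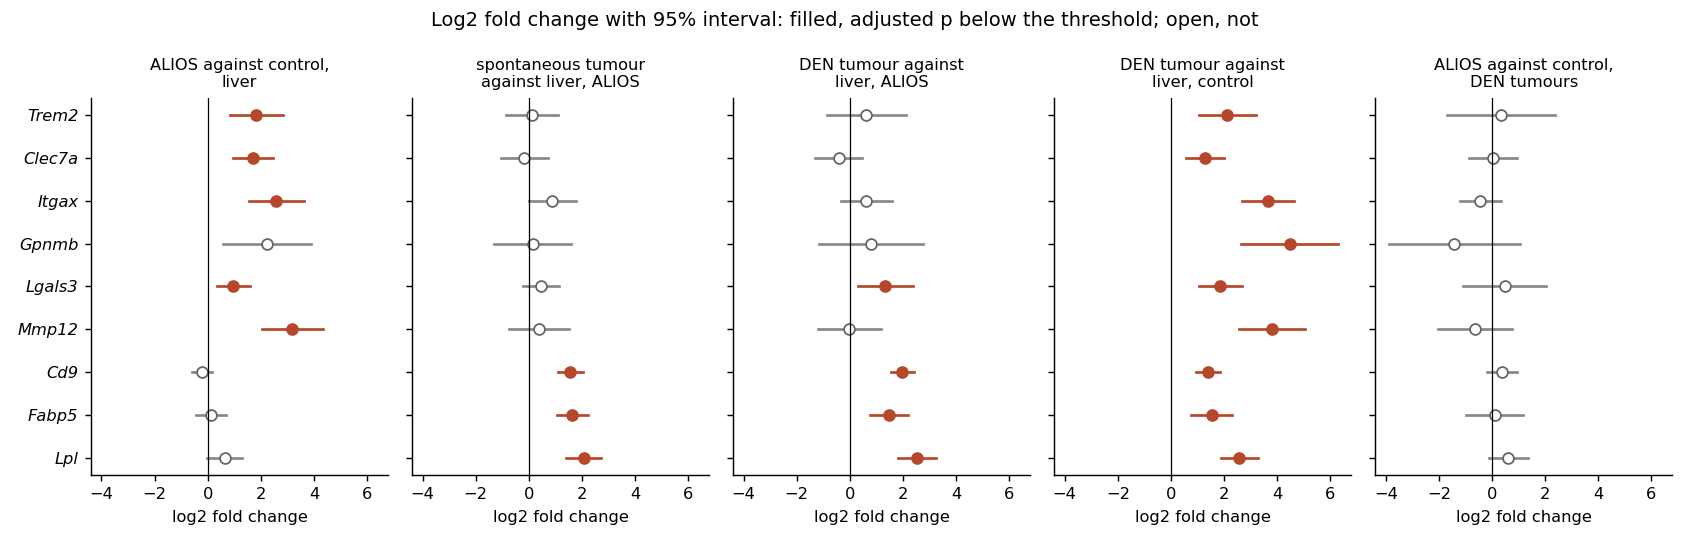
Log2 fold change with 95% interval of the 9 genes in 5 comparisons, filled where the adjusted p passed 0.05 and open where it did not. Of the upper 6 genes 5 are filled for diet in liver and only Lgals3 for tumour against ALIOS liver, while Cd9, Fabp5 and Lpl are open for diet and filled in each comparison of tumour with liver.

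The second comparison set 12 spontaneous tumours against 11 livers, all on the ALIOS diet. Cd9, Fabp5 and Lpl were higher in tumours and no member was lower, where 26.9% of the 14183 genes tested were called higher and 25.9% lower. The share of members called (3 of 9) is thus near that of all genes. The median log2 fold change of the members was 0.46, beside 0.01 for all genes.

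Lpl ranged from 31.0 to 244 CPM in the tumours, with a median of 117, and 10 of 12 tumours lay above the highest ALIOS liver (59.9 CPM). Its fold change was 4.18 (log2 2.06, SE 0.32, adjusted p = 1.26e-05). Fabp5 ranged from 98.6 to 590 CPM with a median of 371, 11 of 12 tumours lay above every ALIOS liver, and the fold change was 3.12 (log2 1.64, SE 0.28, adjusted p = 3.53e-05). Cd9 ranged from 16.9 to 99.3 CPM with a median of 49.7. For Cd9 all tumours but T2 lay above every ALIOS liver, and the fold change was 2.95 (log2 1.56, SE 0.23, adjusted p = 7.25e-06). These 3 calls held whichever library was left out.

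The other 6 members, of which all but Gpnmb had been called for the diet in liver, were not called and had overlapping ranges in tumour and liver. Trem2 ranged from 0.367 to 3.79 CPM in the tumours (median 1.17), and its difference from ALIOS liver had an interval from -0.86 to 1.11 on the log2 scale. The intervals were -1.30 to 1.59 for Gpnmb, -1.04 to 0.71 for Clec7a, -0.73 to 1.53 for Mmp12 and -0.21 to 1.13 for Lgals3, so that all of these intervals but that of Clec7a reach a 2-fold rise. Itgax had a log2 fold change of 0.89 (adjusted p = 0.0884). It was 1.23 (adjusted p = 0.0166) without N17, the ALIOS liver with the highest Itgax, and 1.37 (adjusted p = 0.00341) with the core macrophage level as a covariate. With that covariate Lgals3 was also called (0.77, adjusted p = 0.00261).

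Resident macrophage transcripts were lower in these tumours. Of the 12 Kupffer cell genes 9 were lower and none higher, and the median of the list was -1.45 on the log2 scale. Cd163 (-2.27), Folr2 (-2.22) and Marco (-2.12) had the largest falls. Their summed level ranged from 536 to 1114 CPM in ALIOS livers and from 74.5 to 595 in spontaneous tumours. Of the 9 core macrophage genes 4 were lower (led by Adgre1 -0.99, Csf1r -0.85 and Lyz2 -0.75) and 2 higher, Cd14 (2.56) and Mpeg1 (0.69). No monocyte gene of 9 was called, and 3 of 7 dendritic cell genes were higher (Siglech 1.41, Cd209a 1.36 and Zbtb46 0.41). Tspan8 of the cholangiocyte list, an epithelial tetraspanin, was higher by 6.01, and that list's summed level was 4.08 to 28.7 CPM in ALIOS livers and 6.53 to 601 in tumours. In the same list Sox9 was higher (0.83), while Krt19 (-0.54), Krt7 (-0.31) and Epcam (0.04) were not called. The sum therefore does not measure cholangiocyte content. Whether the rise of Cd9, Fabp5 and Lpl lies in tumour cells or in macrophages was not tested.

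Of the 30 other genes of lipid-associated macrophages 12 were higher in spontaneous tumours and 6 lower. Cd63, a tetraspanin of late endosomes, was higher by 3.90 on the log2 scale, Emp1 by 1.78 and Fabp4, a fatty acid carrier related to Fabp5, by 1.59, while Ctsl (-0.77), Cd36 (-0.56) and Ctsb (-0.49) were lower. Of the Trem2 partners Adam10, a protease that sheds Trem2, was higher (0.29) and Apoe lower (-0.52), with 9 of 11 not called. Of the 9 genes around lipoprotein lipase 5 were lower, 1 higher and 3 not called. Hepatic lipase Lipc (-2.15) and endothelial lipase Lipg (-1.09) were among the lower genes, and Apoc2 (1.08) was higher. In the hepatocyte list Cyp2e1 (-2.97), Cps1 (-1.33) and Tat (-1.29) led the 4 lower genes, and Alb (0.79) and Apoa1 (0.61) were higher. In the remaining lists Pecam1 (0.81), Lyve1 (1.07), Acta2 (1.86), Reln (0.69) and Sox9 (0.83) were higher and Clec4g (-0.82), Dcn (-1.25), Lrat (-1.11) and the melanocyte list gene Dct (-2.86) lower.

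The third comparison set 8 DEN tumours on the ALIOS diet against the same 11 ALIOS livers. Since those livers also served the second comparison, the likeness of their results is not independent. Here 4 members were higher, Cd9, Lpl, Fabp5 and Lgals3, and none lower, where 27.7% of 14434 genes were called higher and 19.8% lower. Cd9 ranged from 34.5 to 116 CPM with a median of 72.1, all 8 tumours above every ALIOS liver, and its fold change was 3.94 (log2 1.98, SE 0.21, adjusted p = 5.18e-07). Lpl ranged from 53.1 to 348 CPM with a median of 145, 7 of 8 tumours above every ALIOS liver, and its fold change was 5.80 (log2 2.54, SE 0.34, adjusted p = 7.50e-06). Fabp5 had a median of 324 CPM (79.8 to 556) and a log2 fold change of 1.48 (SE 0.35, adjusted p = 0.00163).

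The call of Lgals3 rested on tumour T24. Lgals3 was 120 CPM in T24 and 6.05 to 26.1 in the other 7 tumours. The log2 fold change of 1.33 (SE 0.49, adjusted p = 0.0312) fell to 0.38 (adjusted p = 0.357) without T24. Trem2 was 14.3 CPM in T24, the highest of all libraries, against 0.448 to 1.63 in the other 7, and its log2 fold change of 0.62 (adjusted p = 0.494) turned to -1.05 (adjusted p = 0.111) without T24. Gpnmb was 23.2 CPM in T24 and 0.219 to 7.22 in the others, with a log2 fold change of 0.79 with T24 and -0.28 without it, neither called. In T24 the summed core macrophage level was 658 CPM, rank 6 of the 8 tumours, and the summed hepatocyte level (84270 CPM) the lowest of the 8. In tumours the core macrophage sum does not measure macrophage content. Its median was 745 CPM in these 8 tumours and 472 in ALIOS livers, while the list's median log2 fold change was -0.31. T24 also held the highest sum of the stellate cell and fibroblast list (947 CPM, group median 211) and of the dendritic cell list (16.7 CPM, median 12.3) in its group. The part of these cells in the T24 values was not tested.

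Clec7a (-0.42), Itgax (0.62) and Mmp12 (-0.03) were not called in this comparison, with intervals from -1.31 to 0.47, from -0.34 to 1.57 and from -1.21 to 1.16 in that order. With the core macrophage level as a covariate Itgax was called (1.01, adjusted p = 0.0345). Of the Kupffer cell genes 3 of 12 were lower (Cd163 -2.28, Vsig4 -1.27 and Slc40a1 -0.80), and among the 30 other genes of these macrophages 13 were higher, led by Cd63 (3.83), Plaur (2.10) and Fabp4 (1.87), and 3 lower (Ctsl, Cd36 and Lhfpl2). Core macrophage genes gave Cd14 (2.69) and Mpeg1 (1.08) higher and Adgre1 (-0.95) lower. Of the Trem2 partners Adam10 was again higher (0.56) and Apoe lower (-0.39), and of the lipase genes 5 of 9 were lower (led by Lipg, -1.25) and Apoc2 higher (1.35). Among monocyte genes only Fn1, which hepatocytes also make, was called (0.47).

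The fourth comparison set 5 DEN tumours on the control diet against 12 control livers. All 9 members were higher, where 27.3% of 14731 genes were called higher and 24.4% lower. The median log2 fold change of the members was 2.13, beside 0.03 for all genes. All 9 passed whichever DEN tumour was left out, although the adjusted p came to 0.0498 for Clec7a and 0.0495 for Trem2 in the least favourable fit.

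Lpl was 126, 81.2, 96.2, 139 and 92.9 CPM in T17 to T21, all above the highest control liver (51.1 CPM), with a fold change of 5.97 (log2 2.58, SE 0.33, adjusted p = 3.10e-06). Itgax was 7.48, 6.97, 4.31, 1.82 and 5.21 CPM in the same order, also with no overlap with the control livers, and its fold change was 12.6 (log2 3.66, SE 0.46, adjusted p = 2.38e-06). Cd9 was 65.7, 61.8, 41.9, 48.8 and 57.6 CPM, with a fold change of 2.61 (log2 1.39, SE 0.21, adjusted p = 2.01e-05). Only T19 lay below the highest control liver for Cd9, N12 at 44.1 CPM.

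The differences of Gpnmb, Mmp12, Trem2 and Lgals3 depended most on 1 tumour, T17. Gpnmb was 56.1 CPM in T17 and 2.02, 1.85, 0.727 and 5.26 in T18 to T21, and its log2 fold change of 4.47 (SE 0.87, adjusted p = 0.000264) fell to 2.04 without T17. Mmp12 was 41.1 CPM in T17 and 3.62, 4.96, 1.70 and 16.5 in the others, with a log2 fold change of 3.81 (SE 0.60, adjusted p = 2.85e-05), or 2.79 without T17. For Trem2 the values were 5.83, 0.890, 1.04, 0.666 and 1.40 CPM, and the log2 fold change of 2.13 (SE 0.51, adjusted p = 0.00186) was 1.16 without T17. Lgals3 was 48.0 CPM in T17 and 7.57 to 14.95 in the others (log2 fold change 1.86, SE 0.39, adjusted p = 0.000546, and 1.20 without T17).

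Clec7a and Fabp5 had smaller differences. Clec7a was 16.9, 4.15, 5.80, 3.996 and 10.7 CPM in T17 to T21 (log2 fold change 1.28, SE 0.35, adjusted p = 0.00467), and with the core macrophage level as a covariate it was not called (0.68, adjusted p = 0.0595). Fabp5 was 301, 322, 347, 463 and 46.5 CPM. T21, the lowest, lay within the control livers and the other 4 above all of them, for a log2 fold change of 1.53 (SE 0.37, adjusted p = 0.00194). In T17 the summed core macrophage level (1105 CPM) and the summed level of the monocyte list (3387 CPM) were the highest of the 5 tumours. So were its sums of the stellate cell and fibroblast list (570 CPM, median 258), the cholangiocyte list (511 CPM, median 292) and the kidney list (18.6 CPM, median 8.54), and their part in the T17 values was not tested. The monocyte sum is carried by few genes and does not measure monocyte content. In control livers its median was 1595 CPM, although 8 of the 10 genes had a median under 1 CPM. The core macrophage sum does not measure macrophage content in these tumours either. Its median was 613 CPM in the 5 tumours and 255 in control livers, while the list's median log2 fold change was 0.08.

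In these control diet DEN tumours 11 of 12 Kupffer cell genes were lower (median log2 fold change -1.33, led by Cd163 -3.62, Marco -2.23 and Timd4 -1.82) and 5 of 9 monocyte genes higher, led by Vcan (2.66), S100a4 (1.53) and the chemokine receptor Ccr2 (1.49). Core macrophage genes gave Cd14 (3.52) and Mpeg1 (1.62) higher and Mertk (-0.63) lower. Of the 30 other genes of lipid-associated macrophages 18 were higher, led by Cd63 (5.63), Emp1 (3.36) and Fabp4 (2.46), and 2 lower, Ctsl (-0.96) and Creg1 (-0.39). Among Trem2 partners 5 of 11 were higher, led by Ms4a7 (2.29), Clu (0.71) and Inpp5d (0.69). The lipase genes again divided into 5 lower, led by Lipc (-2.68), and Apoc2 higher (2.003). In the stellate cell and fibroblast list 5 of 8 were higher, led by Col1a1 (4.29). Of the kidney list only Slc12a1 passed the filter, and it was higher by 9.98.

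**Figure D4:**
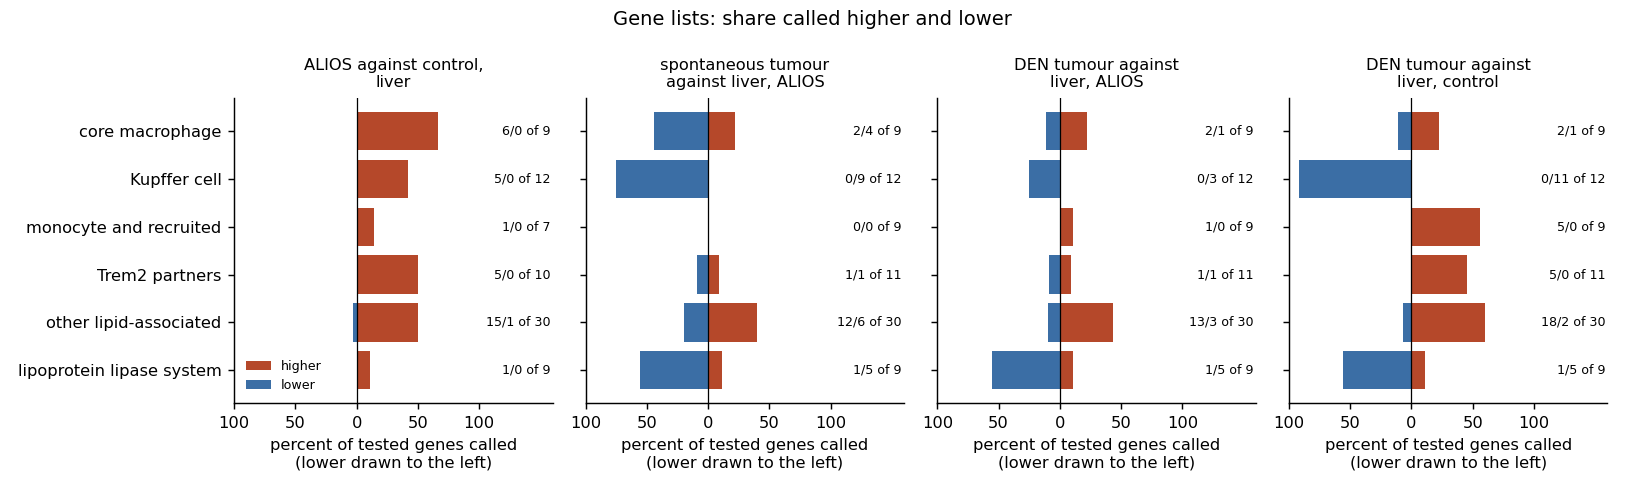
Percent of tested genes of 6 lists called higher (drawn to the right) and lower (drawn to the left) in 4 comparisons, with the counts higher/lower of tested at the right of each row. Kupffer cell genes are higher in 5 of 12 for diet in liver and lower in 3 to 11 of 12 in tumours. The other lipid-associated genes are called higher more often than lower in each of the 4, but so are all genes tested. Of all genes 6.73% were higher and 4.51% lower for diet in liver, and 26.9% and 25.9% in spontaneous tumours. In DEN tumours the shares were 27.7% and 19.8% on the ALIOS diet and 27.3% and 24.4% on the control diet.

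The fifth and sixth comparisons were made among tumours. Between 8 DEN and 12 spontaneous tumours on the ALIOS diet edgeR called 0% of 14845 genes higher and 0% lower, and no member. There 1079 genes had an unadjusted p under 0.05. The number called depended on the fit. DESeq2 called 60 higher and 26 lower, and edgeR with all 5 groups fitted together 223 and 45, none of them a member. The medians in DEN and spontaneous tumours were 0.709 and 1.17 CPM for Trem2, 14.5 and 11.5 for Lgals3, and 145 and 117 for Lpl. The widest intervals of the log2 difference were -0.88 to 1.82 for Trem2 and -0.86 to 2.10 for Gpnmb. Without T24 the log2 difference changed sign for Trem2 (0.47 to -1.22), Gpnmb (0.62 to -0.48) and Lgals3 (0.84 to -0.14), still with no call. Between the diets within DEN tumours 0% of 14944 genes were called higher and 0.0134%, or 2 genes, lower, and again no member. Here 1273 genes had an unadjusted p under 0.05. DESeq2 called 64 higher and 88 lower, and edgeR with all 5 groups fitted together 129 and 99, also without a member. Gpnmb had a log2 difference of -1.42 (interval -3.89 to 1.06), and 1.01 without T17. Trem2 had 0.34 (interval -1.70 to 2.38), and -1.36 without T24. Cd9 (0.38), Fabp5 (0.09) and Lpl (0.61) had narrower intervals, from -0.18 to 0.94, from -0.98 to 1.16 and from -0.13 to 1.36.

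The last comparison tested directly whether the diet effect differed between DEN tumours and non-tumour liver. Over 15606 genes 1.04% were called with a more positive and 1.23% with a more negative diet effect in DEN tumours. Of the 9 members 2 were called, both with a more negative effect in the tumours. For Mmp12 the difference of log2 fold changes was -3.82 (SE 0.89, adjusted p = 0.0178), from 3.19 in liver and -0.64 in DEN tumours. For Itgax it was -3.03 (SE 0.70, adjusted p = 0.0182), from 2.59 in liver and -0.44 in DEN tumours. In control diet DEN tumours the median was 4.96 CPM for Mmp12 and 5.21 for Itgax, beside 5.11 and 1.81 in ALIOS livers. The Mmp12 call was lost without T17 (-2.81, adjusted p = 0.0999), and without T24 Trem2 (-3.18, adjusted p = 0.0166) and Gpnmb (-4.74, adjusted p = 0.0401) were called too. Cd9 (0.60, interval -0.05 to 1.25), Fabp5 (-0.04, interval -1.15 to 1.06) and Lpl (-0.03, interval -1.07 to 1.01) were not called.

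Within groups, the gene whose level followed Trem2 most closely was Gpnmb. Over 48 libraries of the 5 groups with more than 1 library, after subtracting each group's mean of log2 CPM, Spearman's rho was 0.84 for Gpnmb and 0.83 for Mmp12, the first and second of 15984 genes. They were followed by Lyz2 (0.76), C3ar1 (0.75), Timp1 (0.74), Dpep2 (0.72), Col6a2 (0.72), Rab7b (0.72), Clec7a (0.71, rank 9) and Cx3cr1 (0.71). Itgax ranked 53 (0.62), Lgals3 175 (0.55), Lpl 1213 (0.33) and Cd9 near 2667 (0.20), whereas Fabp5 ranked near 14513 with a negative rho of -0.25. Without T24, Mmp12 (0.83) and Gpnmb (0.83) held the first places in the other order. These correlations are descriptions, since all genes of a library share its depth and its mix of cells.

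The only spontaneous tumour on the control diet, T7, cannot be compared with a group and is given by its values. It held 0.551 CPM of Trem2, 1.01 of Gpnmb, 1.68 of Itgax, 3.54 of Clec7a and 5.94 of Lgals3, all within the range of the control livers, and 2.81 of Mmp12, just above their highest (2.18). Its Cd9 (81.3 CPM), Fabp5 (297) and Lpl (169) lay above all 23 non-tumour livers.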

How the data were processed

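RNA-seq was analysed in 49 of 50 libraries. Per the labels and methods the authors kept RNA with a RIN above 8, made stranded mRNA libraries, aligned the paired reads with STAR (2-pass, mm10) and counted exon reads of Gencode M6 genes with HTSeq in intersection-nonempty mode, with versions and strand option not given in the sources used here. They deposited raw counts per gene, without normalization. Libraries were grouped by their labels. Gene symbols came from the table and, where missing, from Gencode M21.

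Counts were tested with edgeR 4.0.16 (R 4.3.3): filterByExpr on the groups compared, TMM library sizes, glmQLFit and glmQLFTest without covariates, Benjamini-Hochberg adjustment over all genes tested, and a call at an adjusted p under 0.05. Only the groups compared entered a fit. The standard error is the log2 fold change divided by the square root of F, and intervals are at 95%. Levels in CPM use TMM sizes over the 49 libraries. DESeq2 1.42.0 was an alternative, and scripts were tested on simulated data. Numbers of reads are not numbers of molecules, since no molecular identifiers were used. No 2 libraries of a group were alike enough to be one library (smallest chi-square per gene 12.8).

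The members, the 14 gene lists (written from general knowledge) and the tests were chosen with earlier results of these data known. Genes named are the 9 members, up to 3 called genes in each direction with the largest log2 fold change per list, the 10 genes most like Trem2, and Alb and Kap as a check of T1. Some genes that this rule names are not reported here. In the hepatocyte and lipoprotein lipase lists 9 of 10 symbols were found in the table. The numbers 13 and 14, shared by livers and spontaneous tumours, and 15, 16, 22 and 23, shared by livers and DEN tumours, are running library numbers, and libraries with the same number did not deviate together (correlation of deviations from group means between -0.19 and 0.08).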

Additional observations from a re-analysis of the deposited data

Results flagged for a closer look

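The levels of the 9 members were searched for a library far from its group among the 5 control diet and the 8 ALIOS diet DEN tumours. By Dixon's test at the 95% level, run on CPM and not on log levels, 6 of 18 such groups of values held one. Its chance rate of 1 in 20 holds for independent groups of normally spread values and is no measure here. Levels in CPM spread widely within a group, for Gpnmb 106-fold among ALIOS diet DEN tumours. Nor are the groups independent: all 6 were the highest value of T17 or T24, in the same 3 genes. In the control diet tumour T17 they were Trem2 at 5.83 CPM, Gpnmb at 56.1 and Lgals3 at 48.0. In the ALIOS diet tumour T24 they were Trem2 at 14.3 CPM, Gpnmb at 23.2 and Lgals3 at 120. T24 was also the highest of its group for Mmp12 (19.02 CPM, next 12.8) and Itgax (5.98, next 5.09), and T17 for Mmp12 (41.1 CPM, next 16.5).

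The diet effect in DEN tumours differed from that in liver for Mmp12 (difference of log2 fold changes -3.82) and Itgax (-3.03) by the interaction test of edgeR. The Mmp12 difference did not pass without T17.

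Of 2 libraries outside the comparisons, T7, the control diet tumour, held more Cd9 (81.3 CPM), Mmp12 (2.81), Fabp5 (297) and Lpl (169) than any of the 12 control livers. T1, which is labelled as a tumour but held kidney transcripts, exceeded the control livers in Cd9 (47.7 CPM, here of its raw total), Itgax (5.67), Mmp12 (2.14), Lgals3 (21.2) and Lpl (273).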

How the results depend on the processing

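For diet in non-tumour liver 5 members were called, against 3 with all 5 groups fitted together, 0 with the core macrophage covariate (where Lgals3 changed sign, to -0.14), and 3 to 6 with 1 liver left out (3 without N17). For spontaneous tumours against liver 3 were called, against 5 with the macrophage covariate and 3 to 4 with 1 library left out. For DEN tumours against liver on the ALIOS diet 4 were called, against 5 with the macrophage covariate and 3 without T24. For the difference of the diet effects 2 members were called lower, against 1 with the macrophage covariate, 1 without T17 and 4 without T24. With the shared library numbers as a replicate block, 0 members were called for spontaneous tumours and 2 for DEN tumours on the ALIOS diet. That fit keeps only 2 and 4 shared numbers and so fewer samples. Because these are running numbers not known to pair samples, it cannot say how far the calls hold. The calls of DEN tumours against control livers were 9 in every fit but the macrophage covariate (8, without Clec7a). DESeq2, RLE normalization, no filter on low counts, robust dispersions and T1 included left the counts of called members within 1.5 times the reported ones. With DESeq2, however, some log2 fold changes that were not called in either fit changed sign. For DEN tumours against ALIOS liver Trem2 went from 0.62 to -1.02. For diet in DEN tumours Trem2 went from 0.34 to -1.32 and Lgals3 from 0.47 to -0.50. Over 1260 single values under an alternative, 1168 kept direction and side of the threshold, 29 lost and 10 gained a call, and 52 that were called in neither fit changed sign. A fit without T9, added after the data were seen, called no member between DEN and spontaneous tumours.

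At these depths Trem2, Gpnmb, Itgax and Mmp12 rest on few reads in control livers, so folds against that group are imprecise. With 5 control diet DEN tumours, the intervals for diet in DEN tumours are wide, and a missing call there does not show that the levels were alike.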
